A study of Saccharomyces cerevisiae with 12 samples.

Results

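The 10 genes described here carry the cytosolic synthesis, elongation and desaturation of fatty acids in budding yeast, Saccharomyces cerevisiae. They were chosen by their systematic names and are 10 of the 5769 genes with values: ACC1 (YNR016C), FAS1 (YKL182W), FAS2 (YPL231W), OLE1 (YGL055W), ELO1 (YJL196C), ELO2 (YCR034W), ELO3 (YLR372W), IFA38 (YBR159W), PHS1 (YJL097W) and TSC13 (YDL015C). Transcripts were measured in 3 mutants made with UV light, named fhf1, fhf2 and fhf3, and in their wild-type parent, strain Y55 JT20150 (MAT-alpha MAL1 SUC1). All of them, wild type included, were grown on rich medium with 20% maltose in stirred, semi-aerobic fermentations of 200 mL at 22 °C and were collected on day 2. The mutants are labelled as fast fermenters of maltose. Each strain had 3 separate cultures, each with 1 deposited value per gene. The values come from arrays of 1 colour with 8 probes per gene, designed on the laboratory strain S288C. The set of values of 1 culture is called an array here. Each mutant is a single isolate, and the mutated genes are not given in the labels, so effects of one mutation and of others that the same UV treatment may have made cannot be told apart. Since every strain was sampled on the same day, strain and stage of fermentation cannot be told apart either.

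Fatty acid synthesis starts with acetyl-CoA carboxylase, Acc1, which makes malonyl-CoA. The fatty acid synthase, built from the Fas1 (beta) and Fas2 (alpha) subunits, uses malonyl-CoA to build saturated acyl chains, and Ole1, the only fatty acid desaturase of this yeast, puts a double bond into them with the help of oxygen. Chains are lengthened further at the endoplasmic reticulum. There an elongase (Elo1, Elo2 or Elo3) performs the condensation, and Ifa38, Phs1 and Tsc13 then act as the ketoreductase, the dehydratase and the enoyl reductase of the cycle. Elo1 extends medium and long chains, while Elo2 and Elo3 make the very long chains that are built into sphingolipids. Membrane lipids matter to fermenting yeast because both ethanol and a short supply of oxygen bear on them.

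Levels are log2 values relative to the median gene of the same array, so that 0 is the level of that gene and a difference of 1 is 2-fold. Differences are a mutant minus wild type, or the first-named mutant minus the other, with the moderated standard error (SE) of limma. A gene is said to have risen or fallen where its Benjamini-Hochberg adjusted p over all 5769 genes was under 0.05 in a two-sided test. Different genes have different probes, so a level is compared between strains and not between genes. The arrays read whole cultures, so fewer transcripts in every cell and fewer cells with the transcript cannot be told apart.

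Before centring, the median log2 value of the 12 arrays lay between 12.09 and 12.98. Arrays of the same strain correlated at 0.964 to 0.991 over all genes. The fhf3 arrays stood apart, at 0.858 to 0.901 with arrays of other strains, while those of the other strains correlated at 0.92 to 0.984 with each other. Averaged over the 3 arrays of a strain, these medians were 12.61 in fhf1, 12.67 in fhf2 and 12.22 in fhf3, against 12.60 in wild type. Centring therefore raised the differences of fhf3 from wild type by 0.38 and lowered those of fhf1 and fhf2 by 0.01 and 0.07, and fhf3 differences between 0 and 0.38 change sign without it. Marker genes of mating type were read as well. The mean level of 4 alpha-cell markers was above the median gene on every array. Of these, MF(ALPHA)2 was below the median gene in the means of fhf1 (-0.99), fhf2 (-0.73) and wild type (-0.70), and above it in fhf3 (0.37). The mean level of 7 a-cell markers was below the median gene on every array. It lay at -2.74 to -2.52 in fhf3, against -1.99 to -1.88 in wild type. Different genes have different probes, so these levels do not settle the mating type given in the labels.

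The clearest difference lay in the very-long-chain elongases. ELO2 was 2.62-fold lower in fhf1 than in wild type, while fhf2 and fhf3 did not pass the test for it. ELO3 was 1.5-fold higher in fhf3 than in wild type. FAS1, a subunit of the fatty acid synthase, was 1.44-fold higher in fhf1 and 1.43-fold higher in fhf3 than in wild type. Both rises in fhf3 depended on the centring. On the values as deposited the fhf3 differences were 0.21 for ELO3 and 0.14 for FAS1 on the log2 scale, and neither was called. The rise of FAS1 in fhf1 kept its size on those values, at 0.54, but was not called either. Across the 4 strains an F test called 4 of the 10 genes, ELO2, ELO3, FAS1 and ELO1, against 54.5% of all genes tested.

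**Figure D1:**
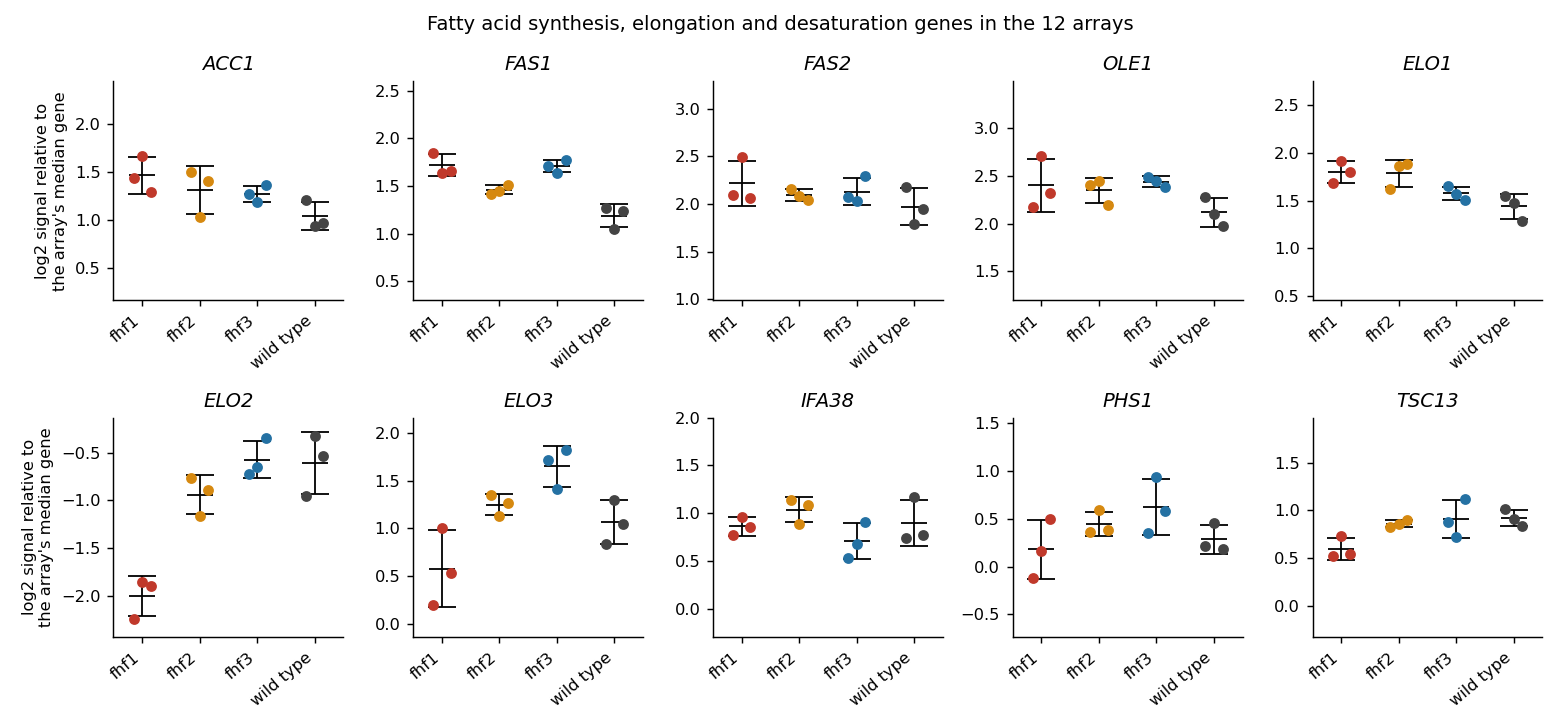
Level of each of the 10 genes on each of the 12 arrays, as log2 relative to the array's median gene (y axis), by strain (x axis: fhf1, fhf2, fhf3, wild type). The y axes cover the same span but start at different levels. Points are cultures, and bars give the mean and SD of 3 cultures. The fhf1 cultures lie between -2.24 and -1.86 for ELO2, apart from all other strains, and the fhf3 cultures lie highest for ELO3.

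ELO2, the elongase that mainly makes very long chains of intermediate length, had levels of -2.24, -1.86 and -1.90 in the fhf1 cultures and of -0.77, -1.17 and -0.89 in the fhf2 cultures. In fhf3 it had -0.72, -0.65 and -0.35, against -0.96, -0.33 and -0.54 in wild type. All 3 fhf1 cultures were below every other culture, whereas the cultures of fhf2 and fhf3 overlapped those of wild type. The difference of fhf1 from wild type was -1.39 (SE 0.164, 95% interval -1.73 to -1.04, adjusted p = 1.03e-05), which placed ELO2 as number 42 from the lowest of all 5769 genes in that comparison. The difference was -0.34 in fhf2 (95% interval -0.68 to 0.01, adjusted p = 0.272) and 0.03 in fhf3 (95% interval -0.31 to 0.38, adjusted p = 0.879), or -0.35 in fhf3 on the values as deposited. The fall in fhf1 held with any one of the 12 arrays left out, with an adjusted p of at most 0.000183.

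Set against the other mutants, ELO2 was also lower in fhf1. It was 2.07-fold lower in fhf1 than in fhf2, a difference of -1.05 (SE 0.164, 95% interval -1.39 to -0.71, adjusted p = 0.00113). That made ELO2 number 7 from the lowest of all genes in that comparison, in which 1.04% of all genes were called lower. Between fhf3 and fhf1 the difference was 1.42 (95% interval 1.08 to 1.76, adjusted p = 1.31e-06), or 2.68-fold. In order of the mean, fhf3 (-0.58 ± 0.197, SD, n = 3) and wild type (-0.61 ± 0.322) were followed by fhf2 (-0.95 ± 0.205) and fhf1 (-2.00 ± 0.21). Of these neighbours, the test separated fhf1 from fhf2 and no other pair.

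ELO3, the elongase that completes the longest chains, had another order of strains. Its levels were 0.20, 1.00 and 0.53 in fhf1, 1.35, 1.13 and 1.27 in fhf2, and 1.72, 1.41 and 1.82 in fhf3, against 0.84, 1.30 and 1.05 in wild type. The fhf3 cultures lay above all wild-type cultures, and the fhf1 and wild-type cultures overlapped. In fhf3 ELO3 rose by 0.59 (SE 0.174, 95% interval 0.22 to 0.95, adjusted p = 0.0101). That call was lost without fhf3 replicate 3 (adjusted p = 0.051) or without wild type replicate 1 (adjusted p = 0.0539). On the values as deposited, without centring, the difference was 0.21.

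In fhf1 the ELO3 difference from wild type was -0.49 (95% interval -0.85 to -0.12, adjusted p = 0.0612), and in fhf2 it was 0.19 (adjusted p = 0.623). Between mutants, ELO3 was 2.11-fold higher in fhf3 than in fhf1, a difference of 1.07 (95% interval 0.71 to 1.44, adjusted p = 5.83e-05). The difference of fhf1 from fhf2 was -0.67 (95% interval -1.04 to -0.31, adjusted p = 0.0575), and that of fhf3 from fhf2 was 0.40 (adjusted p = 0.0675). Of the means, fhf3 was highest at 1.65 ± 0.215 (SD, n = 3), then came fhf2 at 1.25 ± 0.115, wild type at 1.06 ± 0.232 and fhf1 at 0.58 ± 0.403. No neighbours in that order passed the test, and the wide spread of fhf1 comes from its replicate 1 at 0.20 and replicate 2 at 1.00.

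ELO1, which elongates medium and long chains, rose in fhf1. It had levels of 1.69, 1.92 and 1.80 in fhf1, 1.62, 1.86 and 1.88 in fhf2, and 1.65, 1.57 and 1.51 in fhf3, against 1.55, 1.48 and 1.29 in wild type. All cultures of fhf1 and fhf2 were above all wild-type cultures. The rise in fhf1 was 0.36 (SE 0.12, 95% interval 0.11 to 0.61, adjusted p = 0.0452). In fhf2 a difference of nearly the same size, 0.35 (95% interval 0.09 to 0.60), had an adjusted p of 0.104, and in fhf3 the difference was 0.14 (adjusted p = 0.362), or -0.24 on the values as deposited. The call in fhf1 was near the threshold. It was kept without fhf1 replicate 1 or wild type replicate 1, and without any one of the other 10 arrays the adjusted p lay between 0.05 and 0.174, the highest without wild type replicate 3.

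The other enzymes of the elongation cycle, IFA38, PHS1 and TSC13, did not pass the test in any mutant against wild type. TSC13, the enoyl reductase, had levels of 0.52, 0.73 and 0.54 in fhf1 and of 0.82, 0.86 and 0.90 in fhf2. In fhf3 it had 0.88, 0.72 and 1.12, against 1.01, 0.91 and 0.84 in wild type. The fhf1 cultures were below all cultures of wild type and fhf2. The difference of fhf1 from wild type was -0.32 (95% interval -0.58 to -0.07, adjusted p = 0.078), and that of fhf1 from fhf2 was -0.26 (adjusted p = 0.345). Between fhf3 and fhf1, TSC13 rose by 0.31 (adjusted p = 0.043) although 1 fhf3 culture lay within the fhf1 range. On the values as deposited that last difference turned to -0.08 (adjusted p = 0.836), and with single arrays left out the call was kept for 4 of 12, with an adjusted p between 0.0192 and 0.205.

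PHS1, the dehydratase, had wide spreads between cultures of fhf1 and of fhf3, with SDs of 0.308 and 0.299. It had levels of -0.12, 0.16 and 0.50 in fhf1, of 0.36, 0.59 and 0.38 in fhf2 and of 0.35, 0.94 and 0.58 in fhf3, against 0.22, 0.46 and 0.18 in wild type. Every mutant overlapped wild type. Its difference from wild type was -0.10 in fhf1 (adjusted p = 0.713), 0.16 in fhf2 (adjusted p = 0.647) and 0.34 in fhf3 (adjusted p = 0.0905), or -0.04 in fhf3 on the values as deposited. Between fhf3 and fhf1 it rose by 0.45 (95% interval 0.11 to 0.79, adjusted p = 0.0303). That call was lost without fhf1 replicate 1 or 2 (adjusted p = 0.144 and 0.0715), without fhf3 replicate 2 or 3 (adjusted p = 0.18 and 0.0548) and on the values as deposited, where the difference was 0.06.

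IFA38, the ketoreductase, had a narrow range of levels, from 0.53 to 1.17 over the 12 arrays. Its means were 0.86 ± 0.0961 in fhf1, 1.04 ± 0.131 in fhf2 and 0.71 ± 0.194 in fhf3, against 0.89 ± 0.242 in wild type (SD, n = 3 each). Every mutant overlapped wild type. The differences from wild type were -0.03 in fhf1 (95% interval -0.32 to 0.26, adjusted p = 0.9), 0.15 in fhf2 (adjusted p = 0.622) and -0.18 in fhf3 (adjusted p = 0.283). The difference of fhf3 from fhf2 was -0.33 (95% interval -0.62 to -0.04, adjusted p = 0.0569).

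At the start of the pathway, FAS1 rose in both fhf1 and fhf3. It had levels of 1.85, 1.64 and 1.66 in fhf1, 1.42, 1.45 and 1.51 in fhf2, and 1.71, 1.64 and 1.77 in fhf3, against 1.27, 1.05 and 1.24 in wild type. Every mutant culture was above every wild-type culture. The rise was 0.53 in fhf1 (SE 0.112, 95% interval 0.30 to 0.77, adjusted p = 0.00311) and 0.52 in fhf3 (SE 0.112, 95% interval 0.28 to 0.75, adjusted p = 0.00102). In fhf2 the difference was 0.27 (95% interval 0.04 to 0.51, adjusted p = 0.18). Between mutants FAS1 passed no test, with differences of 0.26 for fhf1 against fhf2, -0.01 for fhf3 against fhf1 and 0.25 for fhf3 against fhf2. Both rises held with each array left out in turn, with an adjusted p of at most 0.0189 in fhf1 and 0.00634 in fhf3. In fhf3 the size depended on the centring, since the difference was 0.14 (adjusted p = 0.767) on the values as deposited. In fhf1 the size did not, at 0.54 on those values, but the call was lost on them too.

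FAS2, which encodes the other subunit of the same complex, did not pass the test in any comparison. Its levels ran from 2.06 to 2.49 in fhf1, from 2.04 to 2.16 in fhf2 and from 2.03 to 2.29 in fhf3, against 1.79 to 2.18 in wild type. All mutants overlapped wild type. The differences were 0.24 in fhf1 (95% interval -0.04 to 0.53, adjusted p = 0.24), 0.12 in fhf2 (adjusted p = 0.705) and 0.16 in fhf3 (adjusted p = 0.358), or -0.22 in fhf3 on the values as deposited. Whether the difference of FAS2 is smaller than that of FAS1 was not tested.

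ACC1, which encodes the carboxylase ahead of the synthase, had levels of 1.44, 1.67 and 1.29 in fhf1, 1.5, 1.03 and 1.41 in fhf2, and 1.27, 1.19 and 1.36 in fhf3, against 1.21, 0.94 and 0.97 in wild type. The fhf1 cultures lay above all wild-type cultures, and those of fhf2 and fhf3 overlapped them. ACC1 rose by 0.42 in fhf1 (SE 0.139, 95% interval 0.13 to 0.72, adjusted p = 0.0439). Its difference was 0.27 in fhf2 (adjusted p = 0.297) and 0.24 in fhf3 (adjusted p = 0.17), or -0.14 in fhf3 on the values as deposited. The call in fhf1 was near the threshold. It was lost without fhf1 replicate 1 or 2 (adjusted p = 0.0606 and 0.19), fhf2 replicate 3 (0.0574), any fhf3 array (0.0507 to 0.057) and wild type replicate 2 or 3 (0.127 and 0.126).

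OLE1, the desaturase, had levels of 2.17, 2.71 and 2.32 in fhf1, 2.40, 2.45 and 2.20 in fhf2, and 2.49, 2.45 and 2.38 in fhf3, against 2.28, 2.10 and 1.98 in wild type. The fhf3 cultures were above all wild-type cultures, while those of fhf1 and fhf2 overlapped them. No comparison passed the test. The differences from wild type were 0.28 in fhf1 (95% interval -0.01 to 0.57, adjusted p = 0.176), 0.23 in fhf2 (95% interval -0.06 to 0.52, adjusted p = 0.389) and 0.32 in fhf3 (95% interval 0.03 to 0.61, adjusted p = 0.0645). On the values as deposited the difference in fhf3 was -0.06. OLE1 had the highest signal of the 10, with a mean deposited log2 value of 14.86, which 34 of all genes exceeded.

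**Figure D2:**
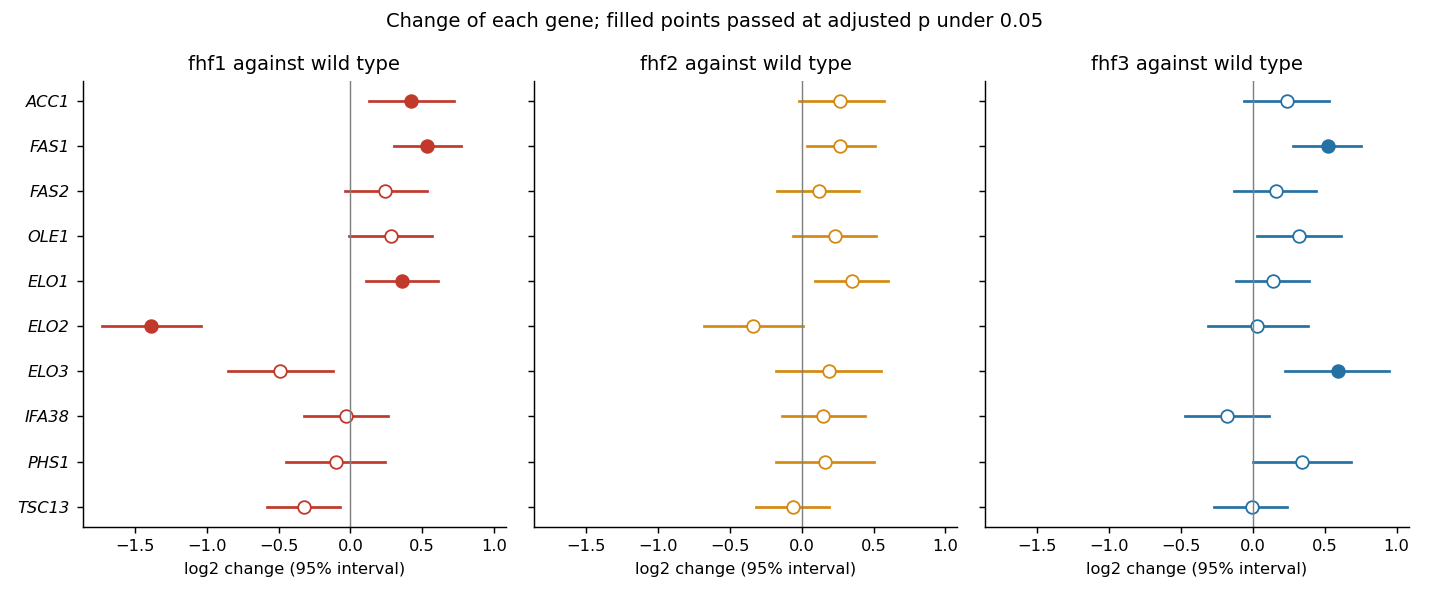
Log2 difference from wild type (x axis) for each of the 10 genes (y axis), with a panel for fhf1, fhf2 and fhf3. Points are differences of means of 3 cultures each after centring, bars are 95% intervals, and filled points have an adjusted p under 0.05. ELO2 in fhf1, at -1.39, is the largest difference, and the rises of FAS1 in fhf1 and fhf3 are 0.53 and 0.52.

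Counted over the 10 genes, 3 rose (ACC1, FAS1 and ELO1), 1 fell (ELO2) and 6 did not pass in fhf1 against wild type, a comparison in which 16.9% of all genes were called, 7.31% higher and 9.55% lower. In fhf2 none of the 10 was called by limma, against 6.34% of all genes (1.98% higher and 4.37% lower), while 2 of the 10, FAS1 and ELO1, had an unadjusted p under 0.05. In fhf3, 2 rose (FAS1 and ELO3) and 8 did not pass, against 47.5% of all genes called, 27.2% higher and 20.4% lower. The median difference of the 10 genes was 0.11 in fhf1, 0.17 in fhf2 and 0.20 in fhf3, and that of all genes was 0.04, 0.03 and 0.10. In fhf3, 8 of the 10 differences were above 0 after centring, while on the values as deposited 2 were (FAS1 and ELO3) and the median was -0.18. The 3 comparisons share the wild-type arrays, so a high or low wild-type culture enters all of them.

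Cultures that did not overlap were counted too. In fhf1 all 3 cultures were above all of wild type for 3 of the 10 genes and below for 2, against 15.9% and 13.8% of all genes. In fhf2 they were above for 2 genes and below for 0, against 13.5% and 12.5%, and in fhf3 above for 3 and below for 0, against 32.1% and 22.7%.

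Between mutants, 1 of the 10 was called for fhf1 against fhf2 (ELO2, lower), against 1.68% of all genes, 0.641% higher and 1.04% lower. For fhf3 against fhf1, 4 rose (ELO2, ELO3, PHS1 and TSC13), against 48.6% of all genes called, 25.1% higher and 23.5% lower. For fhf3 against fhf2, 0 were called by limma, against 46.5% of all genes (24.5% higher and 22% lower). In that last comparison 4 of the 10, FAS1, ELO2, ELO3 and IFA38, had an unadjusted p under 0.05. Without overlap of cultures, fhf1 was above fhf2 for 1 gene and below for 3, against 10.5% and 9.2% of all genes. Likewise fhf3 was above fhf1 for 2 and below for 1, against 26.9% and 26.5%, and above fhf2 for 3 and below for 0, against 32.7% and 27.5%.

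In fhf1 and fhf2 the differences also went with the brightness of the probes. Among the 398 genes with a mean log2 signal of 14 to 16, where FAS1, FAS2, OLE1 and ELO1 lie, the median difference from wild type was 0.21 in fhf1 and 0.12 in fhf2. Among the 1186 genes at 11 to 12, where ELO2 lies, it was -0.06 in fhf1 and -0.03 in fhf2. In fhf1 the order did not hold below 11, where the median was -0.06 among the 289 genes under 10 and -0.11 at 10 to 11. In fhf3 it did not hold over all classes either, since the median was highest, at 0.26, among the genes under 10, and 0.08 at 10 to 11. From 11 upward, where the 10 genes lie, the fhf3 median rose by class from 0.05 over 0.07 and 0.10 to 0.15. FAS1 and ELO1 in fhf1, at 0.53 and 0.36, were above the upper quartile of their class, which was 0.30. FAS2 at 0.24 and OLE1 at 0.28 lay within the quartiles of 0.08 and 0.30. At a signal of 13 to 14 the fhf1 quartiles were -0.07 and 0.24. There ACC1 lay above them at 0.42, IFA38 within them at -0.03, and ELO3 at -0.49 and TSC13 at -0.32 below them. Quantile normalization, which gives all arrays the same distribution of values, left FAS1 and ELO2 called in fhf1, and ACC1 at 0.32 (adjusted p = 0.101) and ELO1 at 0.22 (adjusted p = 0.198) were not. Under it TSC13, at -0.38 (adjusted p = 0.0306), and ELO3, at -0.57 (adjusted p = 0.0327), fell in fhf1.

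**Figure D3:**
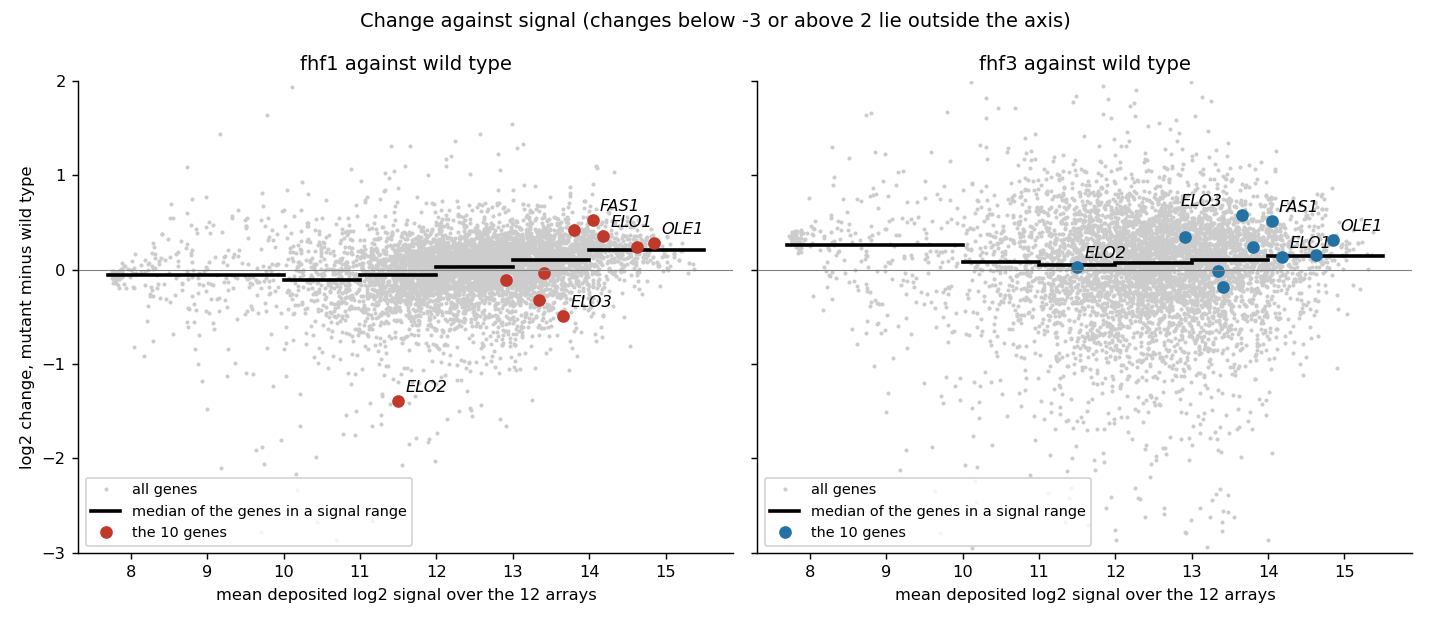
Log2 difference from wild type (y axis) against the mean deposited log2 signal over 12 arrays (x axis) for all genes in grey and the 10 genes in colour, with panels for fhf1 and fhf3. Black bars are the medians of classes of signal. In fhf1 the bar lies at -0.06 for signals of 11 to 12 and at 0.21 for 14 to 16, and ELO2 lies far below it.

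The authors' deposited table tests whether a change exceeds 2-fold, with values that were not centred. For ELO2 in fhf1 the authors' deposited table gives -1.38 on the log2 scale, with an adjusted p of 1. All 10 genes had a deposited adjusted p of 1 in all 3 mutants. A change of ELO2 beyond 2-fold was therefore not called in the authors' deposited table, whereas a difference from no change was called here.

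The genes whose levels followed ELO2 most closely over the 12 arrays were PMI40, PCL1, YHR127W, RFC5 and SFG1, with Pearson correlations of 0.956, 0.949, 0.936, 0.921 and 0.916. The points share arrays and fall mostly into fhf1 against the rest, so these values are a description. PCL1, a cyclin of the G1 phase that partners the kinase Pho85, had levels of -3.08, -2.32 and -3.26 in fhf1 and of -1.49, -2.16 and -1.65 in fhf2. In fhf3 it had -1.49, -1.23 and -0.82, against -1.25, -1.02 and -1.18 in wild type. PMI40, which encodes mannose-6-phosphate isomerase of protein mannosylation, had -0.01, 0.09 and 0.09 in fhf1, against 0.43, 0.61 and 0.49 in wild type. In both genes all fhf1 cultures were below all other cultures.

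**Figure D4:**
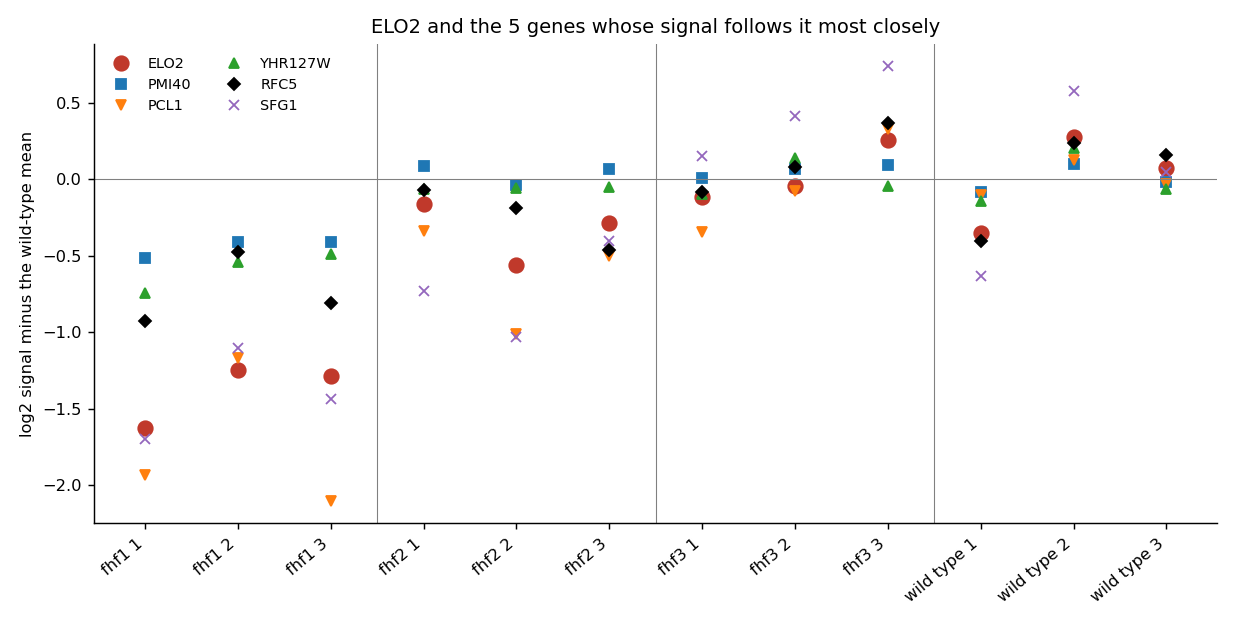
Level of ELO2 and of the 5 genes most like it (y axis, log2 after centring, minus the gene's wild-type mean) on each of the 12 arrays (x axis, by strain and replicate). The genes were chosen by their correlation with ELO2, so the likeness is not a finding. All 6 are lowest on the 3 fhf1 arrays.

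Genes that feed, regulate or use the pathway were read from 9 lists. Supply of acetyl-CoA, the substrate of Acc1, had 3 genes. In fhf1 and fhf2 none of the 3 passed, and in fhf3 ACS1, the acetyl-CoA synthetase that glucose represses, fell by 0.77 (SE 0.161, adjusted p = 0.000722). Of 6 genes for the biotinylation of Acc1 and for the Snf1 kinase, which phosphorylates and inhibits Acc1, none passed in fhf1 or fhf2. In fhf3 1 fell, SIP2, a beta subunit of Snf1, by 1.52 (SE 0.119, adjusted p = 7.44e-09), to a mean level of -0.68, against 0.84 in wild type. SNF1 itself differed by -0.03 in fhf3. The median of the 6 was 0.12 in fhf1, 0.10 in fhf2 and -0.02 in fhf3, beside medians over all genes of 0.04, 0.03 and 0.10. Of all genes, 16.9% were called in fhf1 and 6.34% in fhf2, and 20.4% were called lower in fhf3. With lists this short, the counts are not read as a result about them.

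The regulators of ACC1, FAS1 and FAS2 transcription, 6 genes, had 1 that fell in fhf1 and 0 called in fhf2. ABF1, a general regulatory factor, fell by 0.40 in fhf1 (adjusted p = 0.0278). In fhf3 INO4, whose protein activates phospholipid genes together with Ino2, rose by 0.50 (adjusted p = 0.0288) and RAP1, another general regulator, fell by 0.42 (adjusted p = 0.00747). The median of these regulators was -0.03 in fhf1, -0.26 in fhf2 and -0.29 in fhf3. Over all genes, 7.31% were called higher and 9.55% lower in fhf1, and 27.2% higher and 20.4% lower in fhf3. In fhf2 6.34% of all genes were called in either direction. Of 9 regulators of OLE1, with medians of 0.26, 0.07 and -0.04, SPT23 rose by 0.42 in fhf1 (SE 0.121, adjusted p = 0.0228). Spt23 and Mga2 are membrane-bound activators of OLE1. In fhf3 UFD1, of the complex that releases them, rose by 0.36 and HAP1, a haem-responsive activator, rose by 0.37, with adjusted p-values of 0.0274 and 0.0302. Neither difference was above 0 on the values as deposited (-0.02 and -0.01). With single arrays left out, the call was kept for 7 of 12 arrays for ABF1 (highest adjusted p = 0.0808), 7 for INO4 (0.153), 9 for SPT23 (0.101), 9 for UFD1 (0.105) and 8 for HAP1 (0.117).

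Acyl chains are used by sphingolipid synthesis and by the acyltransferases. Of 16 sphingolipid genes with values, 1 fell in fhf1 (TSC10, the reductase of long-chain bases, by 0.38, adjusted p = 0.0191), 0 were called in fhf2 and 6 rose in fhf3. Over all genes 9.55% were called lower in fhf1, 6.34% in either direction in fhf2 and 27.2% higher in fhf3. The 6 in fhf3 were ORM2, IPT1, SUR1, LCB1, CSG2 and ORM1. ORM2, a regulator of serine palmitoyltransferase, rose by 0.53 (adjusted p = 0.0031) and IPT1, the last enzyme of complex sphingolipids, by 0.51 (adjusted p = 0.00109). The list's median was 0.21 in fhf1, 0.13 in fhf2 and 0.27 in fhf3, and that over all genes was 0.04, 0.03 and 0.10. Without centring 0 of the 16 were called in fhf3, and with single arrays left out the call of TSC10 in fhf1 was kept for 9 of 12 (highest adjusted p = 0.0626). In fhf3 it was kept for 12 of 12 for ORM2 and IPT1, 11 for SUR1, 10 for CSG2, 9 for LCB1 and 5 for ORM1.

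The 9 genes for acyl transfer to glycerolipids and sterols had a median of 0.28 in fhf1 and 0.19 in fhf2, and one of -0.05 in fhf3. Among them, SCT1, a glycerol-3-phosphate acyltransferase, rose by 0.61 (adjusted p = 0.00699) and ARE2, a sterol acyltransferase, by 0.58 (adjusted p = 0.0209) in fhf1. In fhf3 SLC1 rose by 0.71 (adjusted p = 0.000338) and ARE1 by 0.36 (adjusted p = 0.0404), while GPT2, the other glycerol-3-phosphate acyltransferase, fell by 0.96 (adjusted p = 2.36e-05). Of 5 genes for acyl-CoA synthetases and acyl-CoA binding, with medians of 0.28, 0.26 and 0.26, ACB1, the acyl-CoA binding protein, rose by 0.40 in fhf2 (adjusted p = 0.0487) and by 0.35 in fhf3 (adjusted p = 0.0198), and FAA3 rose by 0.66 in fhf3 (adjusted p = 0.00036). With single arrays left out, the call was kept for 9 of 12 for ARE2 in fhf1, 7 for ARE1 in fhf3, 3 for ACB1 in fhf2 and 8 for ACB1 in fhf3, with a highest adjusted p of 0.105, 0.126, 0.21 and 0.0754. On the values as deposited the fhf3 differences of ARE1 and ACB1 were -0.02 and -0.03. Over 20 alternative ways of processing, those of SLC1 and FAA3 went down to 0.33 and 0.28. Each of these 2 genes was called in 17 of them, and GPT2 in 18. Beside both lists, the medians over all genes were 0.04 in fhf1, 0.03 in fhf2 and 0.10 in fhf3. Of all genes, 7.31% were called higher in fhf1, 1.98% in fhf2 and 27.2% in fhf3, and 20.4% were called lower in fhf3.

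The mitochondria keep a separate fatty acid synthase of single-function enzymes, and 8 genes of it were read. ETR1, its enoyl reductase, fell by 0.64 in fhf1 (adjusted p = 0.00136) and by 1.72 in fhf3 (adjusted p = 1.78e-09). CEM1, its condensing enzyme, rose by 1.08 in fhf3 (adjusted p = 9.78e-07). In all, 1 of the 8 fell in fhf1, 0 were called in fhf2, and 2 rose and 2 fell in fhf3, with medians of 0.02, 0.03 and -0.05. Over all genes 9.55% were called lower in fhf1, 6.34% in either direction in fhf2, and 27.2% higher and 20.4% lower in fhf3.

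Fatty acid breakdown, which runs opposite to synthesis in the peroxisome, was the list with the most calls. In fhf3, 11 of 12 genes fell and 0 rose, with a median of -1.06. POT1, the thiolase of beta-oxidation, fell by 4.01 (adjusted p = 1.37e-12), and FOX2, the multifunctional enzyme, fell by 3.06 (adjusted p = 4.06e-11). In fhf1, 4 of 12 fell, with POT1 at -1.47 (adjusted p = 6.24e-06), and in fhf2 1 fell, POT1 at -1.03 (adjusted p = 0.000624). On the deposited, uncentred values 11 of the 12 were called as well. The fraction of all genes that were called lower was 9.55% in fhf1, 4.37% in fhf2 and 20.4% in fhf3.

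**Figure D5:**
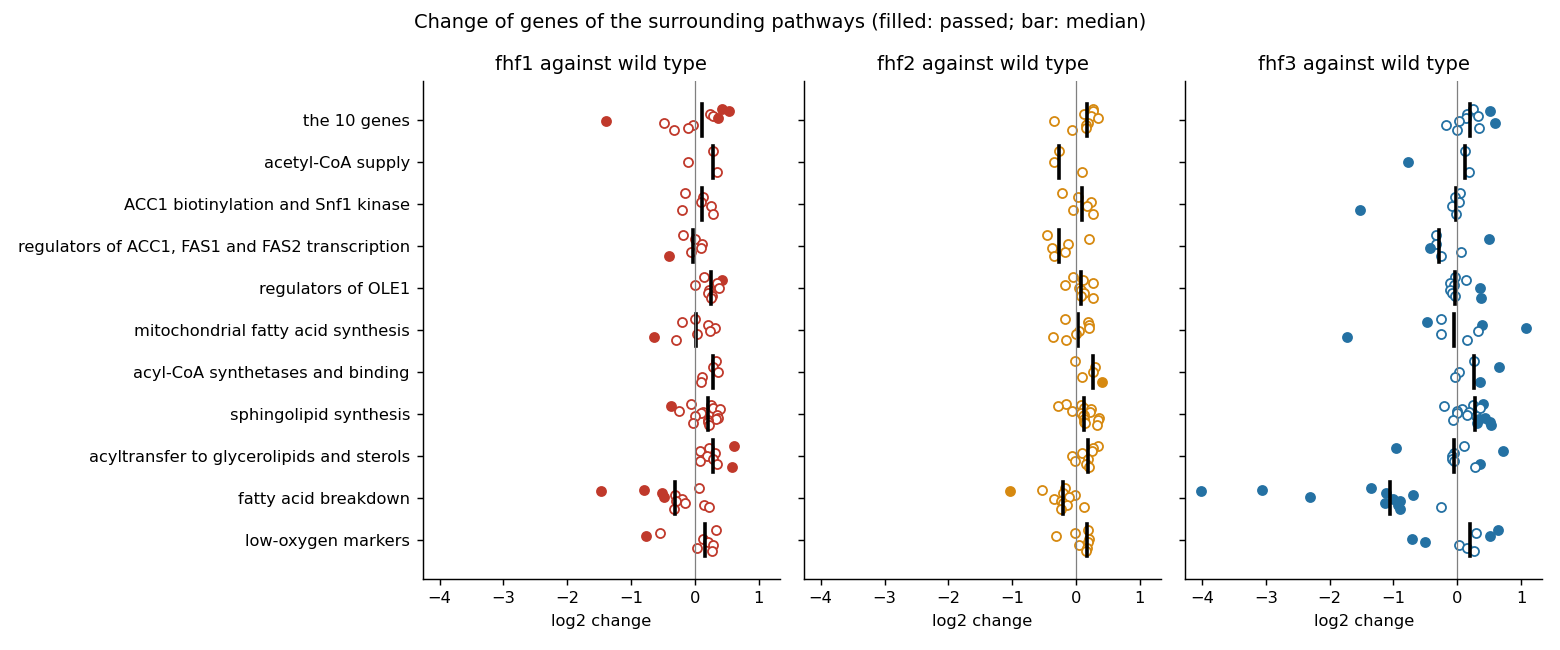
Median log2 difference from wild type (x axis) of each gene list (y axis) in fhf1, fhf2 and fhf3, with points for single genes. The median for fatty acid breakdown is -0.30 in fhf1 and -0.20 in fhf2, and at -1.06 in fhf3 it is below those of the other lists drawn.

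Low-oxygen marker genes and mating-type markers were read beside these lists. Of 8 low-oxygen genes, AAC3 fell by 0.77 in fhf1 (adjusted p = 0.0131) and 0 were called in fhf2. In fhf3 HEM13 and AAC3 rose by 0.64 and 0.51 (adjusted p = 0.00475 and 0.0444). COX5B and CYC7 fell there by 0.71 and 0.51 (adjusted p = 0.0127 and 0.00244). Over 20 alternative ways of processing, the fhf3 difference of HEM13 went down to 0.26 and that of AAC3 to 0.13. HEM13 was called in 17 of them, AAC3 in 8, COX5B in 17 and CYC7 in 18. The calls of AAC3 were kept for 10 of 12 arrays left out in fhf1 and 5 in fhf3. The mean level of the 8 lay between 0.64 and 1.07 in fhf1, 0.95 and 0.99 in fhf2 and 0.87 and 1.16 in fhf3, against 0.78 and 1.00 in wild type. Of the 7 a-cell markers, 5 fell in fhf3, with MFA2 at -1.97 and MFA1 at -1.56. In fhf1 MFA1 fell by 0.78 and ASG7 rose by 0.52, and in fhf2 MFA1 fell by 0.70 and AGA2 rose by 0.50. With single arrays left out, the calls in fhf1 were kept for 11 of 12 (MFA1) and 12 of 12 (ASG7), and those in fhf2 for 4 of 12 (MFA1, highest adjusted p = 0.165) and 5 of 12 (AGA2, 0.183). Of the 4 alpha-cell markers, SAG1 fell by 0.68 in fhf1, 0 were called in fhf2, and MF(ALPHA)2 rose by 1.06 and STE3 by 0.71 in fhf3. Over all genes, 27.2% were called higher and 20.4% lower in fhf3, 7.31% and 9.55% in fhf1, and 1.98% and 4.37% in fhf2. The part of these markers in the differences of the 10 genes was not tested.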

How the data were processed

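Double-stranded cDNA made from polyadenylated RNA was labelled with Cy3 and hybridised to NimbleGen arrays, per the labels' protocols. The labels speak of hybridisation in triplicate, and whether repeats were averaged is not settled. The authors deposited 1 log2 value per gene and array (5872 rows, 5769 with values). Their group means differ as the deposited log2 fold changes do (within 5e-08), so the values are on the same scale. How the scans were corrected, normalised and summarised over probes is not given in the sources used. Limma is named, without a version, per the submitters' processing notes. The authors' deposited table also holds a t score and p-values (raw and adjusted) for every gene and mutant, from a test against a 2-fold change.

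Each array was centred on its median here. All 12 arrays entered 1 fit of 4 strains with limma 3.58.1 in R 4.3.3 (lmFit, eBayes), giving 18.25 total degrees of freedom and a median residual SD of 0.161. Tests of the 6 comparisons and the F test were two-sided on 5769 genes, with Benjamini-Hochberg adjustment within each. A gene was called at an adjusted p under 0.05. The fit was tested on simulated data with independent noise and a constant shift per array. Differences that go with signal were not simulated, so that test does not cover them. The number of arrays, 3 per strain, limits the precision. Gene names come from an R64 table, which named 5763 genes and left 6 unnamed. TSC3, in the sphingolipid list, has no value. The members and lists were chosen with earlier results of these data known. Named are all members, up to 3 called genes per list and comparison with the largest change, marker genes, and the 5 genes most like ELO2, the member of smallest F-test p. LCB1, CSG2, ORM1, SNF1 and MGA2 were named after their values were seen. Alternatives were values without centring, quantile normalization, a filter on the 25% of genes of lowest signal, a trended robust variance, a replicate block, a 2-fold test, fits of 2 strains, and each array left out.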

Additional observations from a re-analysis of the deposited data

How the results depend on the processing

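The counts of called genes among the 10 depended on the scaling and the test, while the fall of ELO2 in fhf1 was called in 17 of 19 alternatives that gave it a value, at -1.56 to -1.25. The 2 that did not call it were the tests against 2-fold. Values as deposited, without centring, called 1 gene in fhf1 against wild type (ELO2) in place of 4, 0 in fhf3 against wild type in place of 2, 2 for fhf3 against fhf1 in place of 4, 2 for fhf3 against fhf2 in place of 0 (ELO1 and IFA38, lower) and 1 over the 4 strains in place of 4. They also turned TSC13 for fhf3 against fhf1 to -0.08. In fhf3 against wild type they turned 6 of the 10, none of them called (ACC1 -0.14, FAS2 -0.22, OLE1 -0.06, ELO1 -0.24, ELO2 -0.35 and PHS1 -0.04), and of called list genes UFD1 to -0.02, HAP1 to -0.01, ACB1 to -0.03, CSG2 to -0.04, ORM1 to -0.07 and ARE1 to -0.02, as in the authors' deposited table. Of all genes, they called 154 in fhf1 in place of 973, 59 in fhf2 in place of 366, and in fhf3 114 higher and 1317 lower in place of 1567 higher and 1174 lower. Quantile normalization and the trended robust variance each called 1 (IFA38) for fhf3 against fhf2. The filter on low signal, which removes ELO2 itself, called 0 for fhf1 against fhf2 in place of 1. The 2-fold test called 0 in every comparison, as did the authors' deposited test in the 3 comparisons it covers. A fit of only the 2 strains called 2 in fhf1 against wild type (FAS1 and ELO2), 2 for fhf3 against fhf1 (ELO2 and ELO3) and 3 for fhf3 against fhf2 (ELO2, ELO3 and IFA38). Leaving out each array in turn gave 2 to 5 calls in fhf1, 0 in fhf2 and 1 to 3 in fhf3 against wild type, 1 to 2 for fhf1 against fhf2, 2 to 4 for fhf3 against fhf1, 0 to 3 for fhf3 against fhf2 and 3 to 5 over the strains. The cause of these changes was not tested. With the replicate block the counts were 4 in fhf3 against wild type (OLE1 and PHS1 added), 2 for fhf1 against fhf2 (ELO3 added, adjusted p = 0.0293) and 2 for fhf3 against fhf2 (ELO2 and IFA38), and ELO3 was added in fhf1 against wild type (adjusted p = 0.0412). Nothing in the labels pairs the numbers, and in none of the 6 comparisons did all 3 same-numbered pairs deviate together with a correlation over 0.1. Replicate 1 correlated at 0.135 to 0.449 over the comparisons, replicate 2 at -0.115 to 0.246 and replicate 3 at -0.241 to 0.208. As a hint from the data only, 6 of 6 arrays were closest to their own number for fhf3 against fhf2, 4 of 6 for fhf2 and for fhf3 against wild type, and 2 or 3 of 6 in the others. List counts and the array-by-array checks of list genes were added after the data were seen.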
